A study of Mus musculus with 16 samples.

Results

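The genes of the cytotoxic granule were read from deposited gene counts of mouse CD8+ T cells, with Tardbp targeted by Cas9 in 1 of 2 groups. The members were the 10 genes Gzma, Gzmb, Gzmc, Gzmk, Gzmm, Prf1, Srgn, Fasl, Serpinb9 and Lamp1, taken by their GENCODE M21 symbol out of 55536 annotated genes. Each symbol matched 1 gene, all 10 had counts in every library, and all 10 passed the filter on low counts with which 16650 genes were tested. The product of Tardbp is TDP-43, which binds RNA and acts in splicing. OT-I cells, whose transgenic receptor sees the ovalbumin peptide SIINFEKL, were electroporated with Cas9 and either a scrambled guide, the Control gRNA, or the Tardbp gRNA and transferred into C57BL/6J mice. All recipients were given SIINFEKL together with agonist antibodies to OX40 and 4-1BB, so both groups carried Cas9 and received antigen with costimulation. CD8+ T cells were sorted from spleen and lymph nodes after 4 days by the labels, which is longer than the time in the methods. Each group had 8 libraries, numbered 1 to 8 in the titles. The study's text describes the cells as taken from individual recipients and then stimulated before sequencing, a step that the labels do not mention. The methods give the age of the mice as a range over all experiments and not by group, and the share of edited cells is not given in the sources used here.

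Cytotoxic T cells kill by releasing the contents of lytic granules against a target cell. Perforin opens the way for the granzymes, a family of serine proteases, while serglycin holds them packed in the granule, cathepsins cut off the peptide that keeps them inactive, and serpins in the cytosol guard the killer cell against its own enzymes. The same cells can also kill through Fas ligand, which engages a death receptor on the target. In activated CD8+ T cells these genes are switched on together by transcription factors such as T-bet, Eomes and Runx3, although single granzymes mark different states of the cell.

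Tardbp itself, the targeted gene, had counts per 1000000 reads (CPM, scaled by TMM) of 172 to 207 with a median of 198 in Control gRNA, and of 110.4 to 147 with a median of 136 in Tardbp gRNA. The groups did not overlap, and the log2 fold change was -0.51 ± 0.0558 (SE, adjusted p = 8.07e-07, edgeR's quasi-likelihood test). From an immunoblot of pooled cells the study reports that the Tardbp protein was absent under the Tardbp gRNA, and the RNA counts here do not measure protein. Control gRNA libraries held 73649630 to 93893357 counts, and those of Tardbp gRNA 56016533 to 94801105. The RNA concentration recorded before dilution, which has no unit, ran from 34.9 to 197.1 for Control gRNA and from 10.1 to 24.0 for Tardbp gRNA without overlap, so it cannot be told apart from the group. All 6 CD8 T cell markers, Cd8a, Cd8b1, Cd3d, Cd3e, Cd3g and Trac, were abundant and higher in Tardbp gRNA, where 23.5% of all tested genes were higher. Their log2 fold changes ran from 0.44 for Cd3e to 0.75 for Cd3g, and their summed level was 3408 to 4271 CPM against 5211 to 6697 CPM. The libraries numbered 1 to 3 stood apart from those numbered 4 to 8 in both groups on the second principal component, which held 8.60% of the variance of log2 CPM. All 16 came from 1 flow cell and the labels give these numbers no meaning, so values within each set are also given for the members that move with them.

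Of the 10 members, 5 were higher in Tardbp gRNA, namely Gzma, Gzmm, Prf1, Srgn and Fasl. Another 2, Gzmc and Serpinb9, were lower, and 3, Gzmb, Gzmk and Lamp1, did not pass the test at an adjusted p under 0.05. Over all 16650 tested genes the same test called 46.7%, of which 23.5% of the tested genes were higher and 23.3% were lower, so calls were common in this comparison. The median log2 fold change was 0.50 over the 10 members and 0.05 over all tested genes. In 2 members, Gzmc and Serpinb9, the 8 libraries of each group did not overlap, which was the case for 16.9% of all tested genes. In bulk samples fewer cells of a type and less RNA per cell cannot be told apart, and this holds for every level below.

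**Figure D1:**
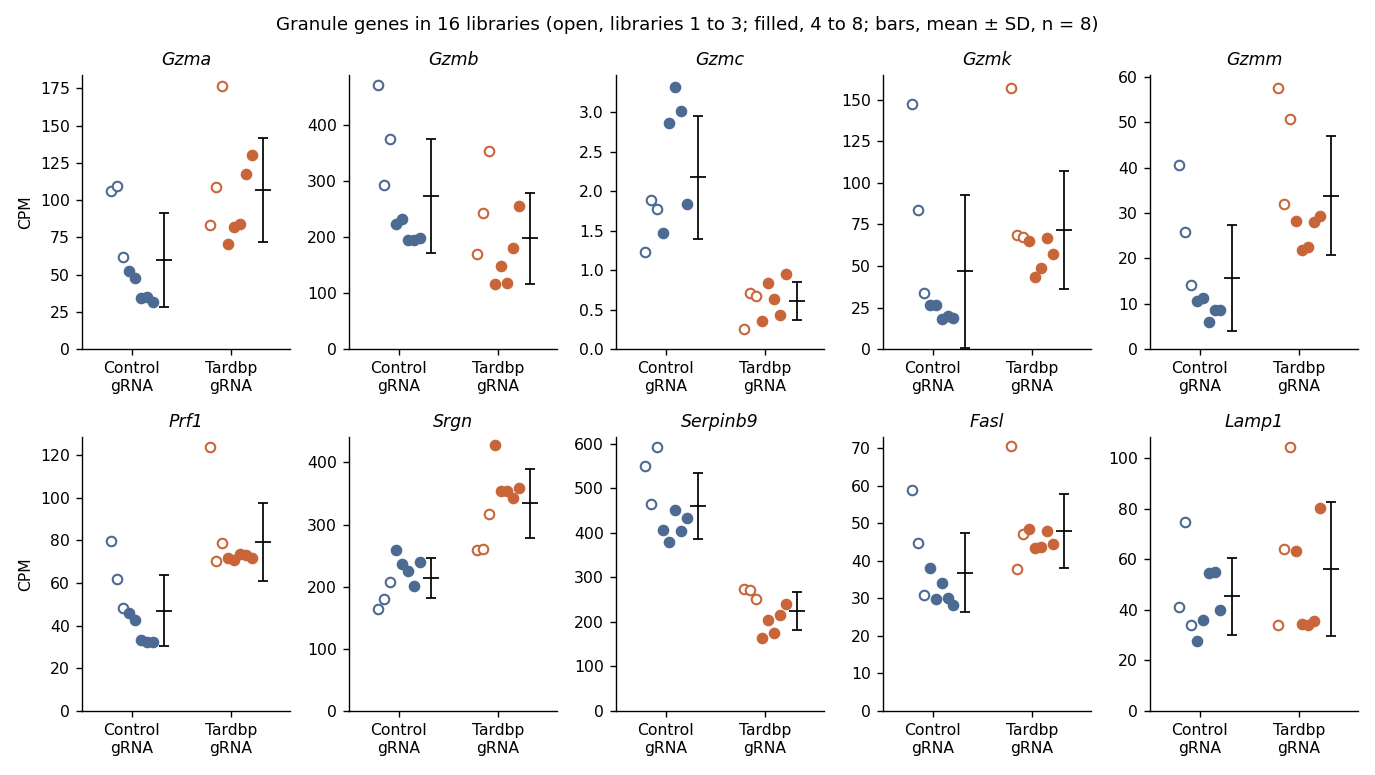
CPM of each granule gene (y axis, linear from 0) in the 8 Control gRNA and 8 Tardbp gRNA libraries; open circles are libraries 1 to 3, filled circles 4 to 8, and bars the mean ± SD. Gzmc and Serpinb9 lie lower in all 8 Tardbp gRNA libraries, and Gzma, Gzmk, Gzmm, Prf1, Srgn and Fasl lie above the Control gRNA median in all 8.

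Among the granzymes, Gzma and Gzmm were higher, Gzmc was lower and Gzmb and Gzmk did not pass. The granzymes lie in gene clusters, and the 5 measured here stand at 3 places. Gzma (chr13:113093825-113100981, minus strand, GRCm38) and Gzmk (chr13:113171608-113225908, minus strand) are neighbours, with 70.6 kb and 0 protein-coding genes between them. Gzmb (chr14:56258838-56262260, minus strand) and Gzmc (chr14:56231441-56234656, minus strand) are likewise neighbours, 24.2 kb apart with 0 protein-coding genes between them. Gzmm (chr10:79689020-79695261, plus strand) lies alone. In each pair 1 gene was called and the other was not, yet both had the same direction. The log2 fold changes were 0.83 for Gzma and 0.62 for Gzmk, and -0.46 for Gzmb and -1.85 for Gzmc. With the 2 sets of numbers as a block, both genes of each pair were called. A difference within a pair was not tested.

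Gzma encodes granzyme A, which cleaves after lysine or arginine. Its level was 31.5 to 109.6 CPM with a median of 50.1 in Control gRNA, and 70.6 to 176 CPM with a median of 96.4 in Tardbp gRNA. All 8 Tardbp gRNA libraries were above the Control gRNA median, yet the groups overlapped, because the Control gRNA libraries numbered 1 and 2 reached 106 and 109.6 CPM. For Gzma the log2 fold change was 0.83 ± 0.267 (SE, adjusted p = 0.0157). Among libraries 4 to 8 the groups did not overlap, at 31.5 to 52.3 CPM against 70.6 to 130.1 CPM, and the log2 fold change was 1.26 (adjusted p = 0.000185, edgeR). Among libraries 1 to 3 they overlapped, at 61.9 to 109.6 CPM against 83.5 to 176 CPM, with a log2 fold change of 0.37 (adjusted p = 0.472, edgeR).

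Gzmk encodes granzyme K, a tryptase described in memory-like CD8+ T cells. Its level was 17.8 to 148 CPM with a median of 26.8 in Control gRNA, and 43.3 to 157 CPM with a median of 66.0 in Tardbp gRNA. Library 1 was the highest of its group on both sides, at 148 and 157 CPM, and the groups overlapped. The log2 fold change of Gzmk was 0.62 ± 0.422 (SE, adjusted p = 0.247). Gzmk passed the test in libraries 4 to 8 alone, where levels of 17.8 to 26.8 CPM stood against 43.3 to 67.0 CPM without overlap and the log2 fold change was 1.35 (adjusted p = 2.4e-05, edgeR). In libraries 1 to 3, where Control gRNA held 33.6 to 148 CPM and Tardbp gRNA 67.2 to 157 CPM, the log2 fold change was 0.11 (adjusted p = 0.914, edgeR). Without the Control gRNA library 1 the difference over the other 15 libraries was 1.14 (adjusted p = 0.0104, edgeR). Of the 16 fits that each left out 1 library, Gzmk passed only in that 1. Without the Tardbp gRNA library 1 its log2 fold change was 0.32 (adjusted p = 0.559, edgeR). With the 2 sets of numbers as a block, Gzmk had a log2 fold change of 0.90 (adjusted p = 0.0138, edgeR). Gzmk overlaps Esm1 on the opposite strand without sharing an exon base, and Esm1 had 68 to 336 counts a library.

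Gzmm, for granzyme M, a protease that cleaves after methionine or leucine, had the widest rise of the members. Its level was 5.90 to 40.6 CPM with a median of 10.9 in Control gRNA, and 21.9 to 57.6 CPM with a median of 28.8 in Tardbp gRNA. Each Tardbp gRNA library was above the Control gRNA median and above the Control gRNA library of the same number, while only Control gRNA libraries 1 and 2 reached into the Tardbp gRNA range. Its log2 fold change was 1.11 ± 0.345 (SE, adjusted p = 0.0132). In libraries 1 to 3 alone it was 0.77 (adjusted p = 0.211, edgeR), and in libraries 4 to 8 alone 1.53 (adjusted p = 1.47e-05, edgeR).

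Gzmb encodes granzyme B, which cleaves after aspartate and activates caspases in the target. Its level was 195 to 472 CPM with a median of 228 in Control gRNA, and 116 to 354 CPM with a median of 175 in Tardbp gRNA. Of the 8 Tardbp gRNA libraries, 5 were below the lowest Control gRNA library, while the other 3 lay within the Control gRNA range. With a log2 fold change of -0.46 ± 0.237 (SE), Gzmb did not pass the test (adjusted p = 0.120). It did so without the Tardbp gRNA library 3, at -0.63 (adjusted p = 0.0259, edgeR), and with the 2 sets of numbers as a block, at -0.44 (adjusted p = 0.0375, edgeR). Of the 16 fits that each left out 1 library, Gzmb passed only in the 1 named, with an adjusted p of up to 0.268 (edgeR). In neither set alone did Gzmb pass, with -0.60 in libraries 1 to 3 (adjusted p = 0.166, edgeR) and -0.36 in libraries 4 to 8 (adjusted p = 0.142, edgeR).

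Gzmc, for granzyme C, a neighbour of Gzmb whose product also kills cells, had the widest difference of the members. Its level was 1.24 to 3.32 CPM with a median of 1.86 in Control gRNA, and 0.255 to 0.954 CPM with a median of 0.653 in Tardbp gRNA. All 8 Tardbp gRNA libraries were below all 8 Control gRNA libraries, at no more than 61 counts a library against up to 302. The log2 fold change of Gzmc was -1.85 ± 0.274 (SE, adjusted p = 2.28e-05), and the mean CPM was 3.59 times lower. In libraries 1 to 3 alone the difference was -1.61 and did not pass (adjusted p = 0.0524, edgeR), although the groups did not overlap there either, and in libraries 4 to 8 alone it was -1.98 (adjusted p = 0.000340, edgeR). With log2 RNA concentration added to the fit it was -1.70 (adjusted p = 0.0511, edgeR). The other granzymes of that cluster, Gzmd, Gzme, Gzmf, Gzmg and Gzmn, were too low to test. Of these, Gzmf had 9 counts in all 16 libraries together and the other 4 had 0 in every library.

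**Figure D2:**
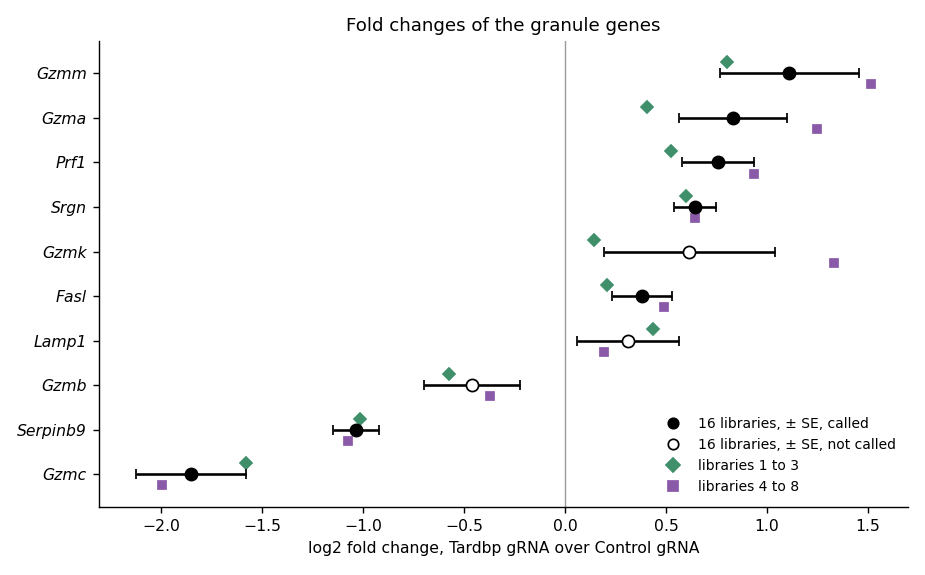
Log2 fold change of each granule gene, Tardbp gRNA over Control gRNA (x axis), as fitted over 16 libraries (circles ± SE, filled where the adjusted p was under 0.05). Diamonds are libraries 1 to 3 and squares 4 to 8, each set fitted alone and with no filter on low counts, unlike the values in the text. Values within libraries 4 to 8 were 1.33 for Gzmk and 1.25 for Gzma, against 0.14 and 0.41 within libraries 1 to 3.

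For 6 of the 10 members, Gzma, Gzmb, Gzmk, Gzmm, Prf1 and Serpinb9, all 3 Control gRNA libraries numbered 1 to 3 were above all 5 numbered 4 to 8. The same was true in Tardbp gRNA for Gzmk, Gzmm and Serpinb9. Srgn went the other way in Tardbp gRNA, where libraries 1 to 3 were below libraries 4 to 8. Whether the difference between guides itself depended on the set was asked with an interaction term over all genes. For Gzmk the difference was 1.21 ± 0.503 (SE) wider in libraries 4 to 8 and for Gzma 0.86 ± 0.368, with unadjusted p of 0.0288 and 0.0330 and an adjusted p of 0.9997 for both. edgeR called 0 of 16650 genes in that test, with 558 at an unadjusted p under 0.05, so a difference between the sets was not shown for any member. The deposited letter M or F of each library, 3 M and 5 F in Control gRNA and 5 M and 3 F in Tardbp gRNA, gave 0 called genes in the same kind of test and 662 at an unadjusted p under 0.05.

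Prf1 encodes perforin, which forms pores in the target membrane. It lies on chr10:61297833-61304680, plus strand. Its level was 32.1 to 79.7 CPM with a median of 44.3 in Control gRNA, and 70.5 to 124 CPM with a median of 72.7 in Tardbp gRNA. Each of the 8 Tardbp gRNA libraries was above the Control gRNA library of the same number, and the groups overlapped only through Control gRNA library 1. On the log2 scale Prf1 differed by 0.75 ± 0.179 (SE, adjusted p = 0.00193). Within libraries 4 to 8 the 5 Tardbp gRNA values were close together, at 70.8 to 73.9 CPM, against 32.1 to 45.8 CPM in Control gRNA. In libraries 4 to 8 alone the log2 fold change was 0.95 (adjusted p = 1.45e-05, edgeR), and in libraries 1 to 3 alone 0.49 (adjusted p = 0.237, edgeR).

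Srgn encodes serglycin, the proteoglycan whose charged chains bind granzymes and perforin in the granule. It lies on chr10:62493833-62527451, minus strand. Its level was 164 to 259 CPM with a median of 216 in Control gRNA, and 259 to 427 CPM with a median of 348 in Tardbp gRNA. All but 1 of the Tardbp gRNA libraries were above the highest Control gRNA library, and that 1, library 1, was at 259.1 CPM beside the highest Control gRNA value of 259.4. The log2 fold change of Srgn was 0.64 ± 0.104 (SE, adjusted p = 6.08e-05). Srgn was called in libraries 1 to 3 alone and in libraries 4 to 8 alone, and within either set the groups did not overlap. With log2 RNA concentration added to the fit, Srgn had 0.46 (adjusted p = 0.180, edgeR).

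Serpinb9 encodes the cytosolic inhibitor of granzyme B that guards the cytotoxic cell itself. It lies on chr13:33003250-33017957, plus strand. Its level was 379 to 593 CPM with a median of 442 in Control gRNA, and 164 to 274 CPM with a median of 227 in Tardbp gRNA. All 8 Tardbp gRNA libraries were below all 8 Control gRNA libraries. The log2 fold change of Serpinb9 was -1.04 ± 0.114 (SE, adjusted p = 9.29e-07), the smallest adjusted p of the members, and the mean CPM was 2.05 times lower. Across 29 other fits of the genes its log2 fold change ranged from -1.14 to -0.96, and it passed in each of them.

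Fasl encodes Fas ligand, which triggers the death receptor Fas on the target. It lies on chr1:161780689-161788495, minus strand. Its level was 28.3 to 59.0 CPM with a median of 32.5 in Control gRNA, and 37.7 to 70.7 CPM with a median of 45.9 in Tardbp gRNA. The groups overlapped, and the Tardbp gRNA library 1 was the highest of all. On the log2 scale Fasl differed by 0.38 ± 0.148 (SE, adjusted p = 0.0430), the smallest of the called members. This call was not stable, since it was lost on leaving out any of 13 of the 16 libraries, with an adjusted p of up to 0.147 and a log2 fold change of 0.25 without Tardbp gRNA library 1. Among libraries 4 to 8 the groups of Fasl did not overlap, at 28.3 to 38.1 CPM against 43.5 to 48.6 CPM, with a log2 fold change of 0.51 (adjusted p = 0.000384, edgeR). Among libraries 1 to 3 they overlapped, at 31.0 to 59.0 CPM against 37.7 to 70.7 CPM, with 0.18 (adjusted p = 0.740, edgeR). Lamp1 (chr8:13159161-13175338, plus strand) encodes a glycoprotein of the granule and lysosome membrane that appears on the surface when a cell degranulates. Its level was 27.8 to 74.7 CPM with a median of 40.6 in Control gRNA, and 34.0 to 104.5 CPM with a median of 49.5 in Tardbp gRNA. Values spread widely within both groups, only 4 of 8 Tardbp gRNA libraries were above the Control gRNA median, and the log2 fold change of 0.31 ± 0.253 (SE, adjusted p = 0.335) did not pass. Of the 2675 exon bases of Lamp1, 9.31% are shared with Grtp1 on the opposite strand, which had 20 to 179 counts a library.

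Levels of different genes were compared only after division by transcript length, as transcripts per 1000000 (TPM) computed from the deposited transcript counts. In Control gRNA the medians ran from Srgn at 358 through Gzmb at 262, Serpinb9 at 214, Gzma at 93.9, Gzmk at 38.2, Prf1 at 30.3, Lamp1 at 29.1, Fasl at 27.9 and Gzmm at 13.9 to Gzmc at 3.46. In Tardbp gRNA the order was Srgn at 556, Gzmb at 195, Gzma at 177, Serpinb9 at 106, Gzmk at 89.1, Prf1 at 47.8, Fasl at 37.1, Gzmm at 35.1, Lamp1 at 34.3 and Gzmc at 1.15. Ranges of neighbours in these orders overlapped throughout, except that Gzmc lay below the next gene in both groups and that Srgn lay above Gzmb in Tardbp gRNA. Serpinb9 was above Gzma in all 8 Control gRNA libraries and below it in all 8 Tardbp gRNA libraries. Prf1, Lamp1 and Fasl in Control gRNA, and Fasl, Gzmm and Lamp1 in Tardbp gRNA, did not differ beyond their spread.

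The make-up of the granzyme mRNA was read beside its sum. The 5 granzymes together had 324 to 954 TPM in Control gRNA with a median of 412, and 362 to 862 in Tardbp gRNA with a median of 577, so the sums overlapped. Of this sum Gzmb held 48.2 to 69.9% in Control gRNA with a median of 65.7%, and 29.9 to 45.2% in Tardbp gRNA with a median of 38.9%. The shares of Gzmb did not overlap, and Gzmb was the leading granzyme in every Control gRNA library. In Tardbp gRNA, Gzmk led in library 1, Gzma led in libraries 6 and 7, and Gzmb still led in the others. Gzma held 17.7 to 29.4% in Control gRNA with a median of 19.8%, and 24.0 to 40.0% in Tardbp gRNA with a median of 36.8%. Gzmk had a median share of 8.80% against 16.5%, Gzmm of 3.34% against 6.97% and Gzmc of 0.847% against 0.190%. The level of Gzmb over that of Gzma was 1.64 to 3.95 for Control gRNA, against 0.866 to 1.37 for Tardbp gRNA, without overlap. The level of Gzmb over that of its inhibitor Serpinb9 was 1.02 to 2.03 with a median of 1.38 in Control gRNA, and 1.47 to 3.33 with a median of 1.86 in Tardbp gRNA, with overlap. These ratios were formed after the values of the members had been seen and were not tested.

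**Figure D3:**
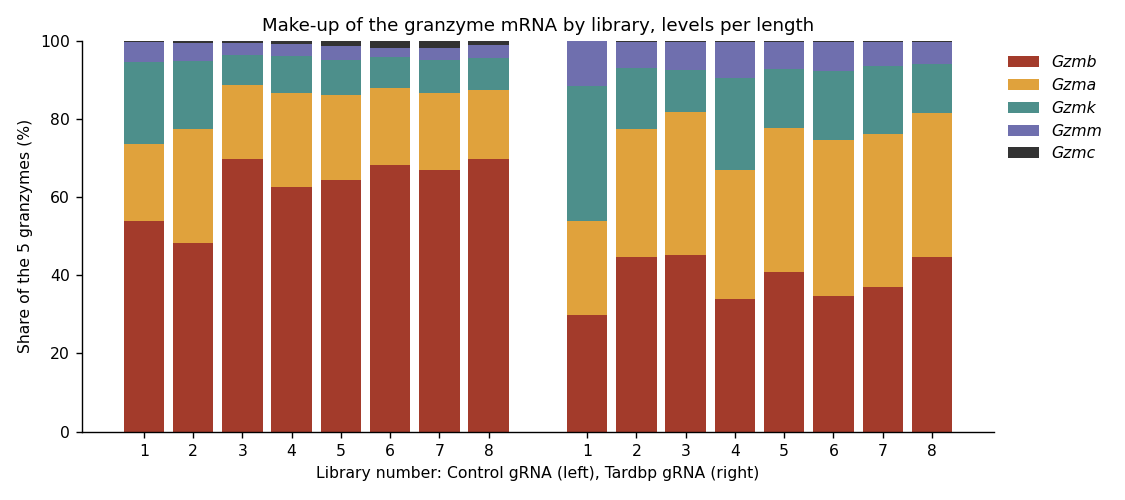
Share of each granzyme in the summed TPM of the 5 granzymes (y axis, %), in each library (x axis, library number; Control gRNA left, Tardbp gRNA right). Gzmb takes 48.2 to 69.9% of every Control gRNA bar and 29.9 to 45.2% of every Tardbp gRNA bar.

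The sequences just before the start of transcription are shown for both pairs of granzyme neighbours, for Prf1 and for the main start of Srgn. RefSeq (GRCm38.p6) held a promoter for all 10 members, and the 250 bases before the start are printed 5′ to 3′ on the strand of the gene. Capitals mark 4 short motifs, sought on both strands and chosen after the values were known. They are the T-box core TCACACC, the Runx core TGTGGT, the AP-1 motif TGANTCA and the NFAT core GGAAA, and a motif on the opposite strand appears as its reverse complement. No motif overlaps another in the windows shown.
Gzma, chr13:113100982-113101231, minus strand: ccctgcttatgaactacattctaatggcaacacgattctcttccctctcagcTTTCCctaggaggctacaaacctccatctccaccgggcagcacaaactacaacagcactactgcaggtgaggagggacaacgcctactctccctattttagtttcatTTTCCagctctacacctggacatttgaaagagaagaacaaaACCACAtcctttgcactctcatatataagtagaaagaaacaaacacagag
Gzmk, chr13:113180966-113181215, minus strand: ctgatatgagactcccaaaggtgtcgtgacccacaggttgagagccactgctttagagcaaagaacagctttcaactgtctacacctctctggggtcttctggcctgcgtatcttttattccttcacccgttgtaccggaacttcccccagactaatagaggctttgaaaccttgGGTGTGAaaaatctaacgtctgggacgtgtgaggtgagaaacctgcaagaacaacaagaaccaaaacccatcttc
Gzmb, chr14:56262335-56262584, minus strand: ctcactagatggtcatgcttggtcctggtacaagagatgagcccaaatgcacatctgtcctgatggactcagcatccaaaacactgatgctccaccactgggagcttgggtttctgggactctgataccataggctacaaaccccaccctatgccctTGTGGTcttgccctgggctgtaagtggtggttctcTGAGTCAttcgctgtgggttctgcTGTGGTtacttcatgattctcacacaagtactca
Gzmc, chr14:56234658-56234907, minus strand: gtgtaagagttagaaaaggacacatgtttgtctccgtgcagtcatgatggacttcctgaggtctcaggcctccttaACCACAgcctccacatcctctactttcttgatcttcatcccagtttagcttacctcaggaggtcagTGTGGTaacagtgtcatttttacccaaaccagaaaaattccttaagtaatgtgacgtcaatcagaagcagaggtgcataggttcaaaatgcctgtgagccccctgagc
Prf1, chr10:61297586-61297835, plus strand: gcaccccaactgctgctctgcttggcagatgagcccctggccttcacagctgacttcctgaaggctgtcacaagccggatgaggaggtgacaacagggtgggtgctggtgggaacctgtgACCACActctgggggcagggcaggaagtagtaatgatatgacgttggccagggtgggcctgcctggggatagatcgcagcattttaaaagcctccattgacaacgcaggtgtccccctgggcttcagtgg
Srgn, chr10:62507758-62508007, minus strand: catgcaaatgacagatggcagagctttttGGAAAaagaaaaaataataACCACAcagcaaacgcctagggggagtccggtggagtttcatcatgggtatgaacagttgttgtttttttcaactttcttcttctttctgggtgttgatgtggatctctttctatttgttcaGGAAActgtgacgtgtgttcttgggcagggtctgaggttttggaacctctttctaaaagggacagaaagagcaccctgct
Within 250 bases before the start, the T-box core was held by 3.33% of all 32851 RefSeq promoters, the Runx core by 14.0%, the AP-1 motif by 6.75% and the NFAT core by 55.6%. Gzmk had the T-box core 75 bases before its start, Gzmb had the AP-1 motif at 58 and the Runx core at 93 and 34, and Gzmc had the Runx core at 174 and 108. Gzma had the Runx core at 50 and Prf1 at 130. Of the 10 members, 7 had the Runx core, 6 the NFAT core, 2 the T-box core and 1 the AP-1 motif in a window of this length. These matches describe letters and not binding.

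The annotation lists 23 transcripts of the members, of which 16 were tested. Of these, 3 were higher, 1 was lower and 12 did not pass at an adjusted p under 0.05, while 16.6% of all tested transcripts were called. Srgn has a pair of starts that its transcripts keep apart. Srgn-201, from the start whose promoter is printed above, held 83.4 to 89.8% of the counts of the gene in Control gRNA, against 87.0 to 90.0% under Tardbp gRNA. Its log2 fold change was 0.63 ± 0.116 (SE, adjusted p = 0.00120). Srgn-204, from the start further upstream, held 10.2 to 16.6% and 9.97 to 12.9%, and its log2 fold change was 0.38 ± 0.112 (SE, adjusted p = 0.0272). Both Srgn transcripts were thus higher. Prf1-202 rose by 0.77 ± 0.190 on the log2 scale (SE, adjusted p = 0.010), while Prf1-201, at a median of 5.04 CPM in Control gRNA, had 0.22 ± 0.343 (SE, adjusted p = 0.739). Gzmc-201, the single transcript of Gzmc, fell by 1.89 on the log2 scale (adjusted p = 0.000275, edgeR).

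The make-up of the transcripts within a member was not seen to differ. Of 11 transcripts with a tested share, limma called 0 at an adjusted p under 0.05 with a difference over 0.1, and 0 had an unadjusted p under 0.05. Over all genes 0.636% of the tested shares were called. Gzmk was split among Gzmk-202, at a mean of 55.3% ± 2.94 (SD, n = 8) in Control gRNA and 53.9% ± 3.37 in Tardbp gRNA, Gzmk-201, at 37.8% ± 2.87 and 39.4% ± 3.28, and the nonsense-mediated decay transcript Gzmk-203, at 6.90% ± 1.37 and 6.75% ± 0.470. Serpinb9 was assigned to Serpinb9-201 at 90.9% or more in all but 2 libraries. In Control gRNA library 7 and Tardbp gRNA library 4 it was assigned to Serpinb9-202 instead, at 84.5 and 85.2%, and Serpinb9-201 did not pass as a transcript, with a log2 fold change of -1.04 ± 0.406 (SE, adjusted p = 0.0990), although the gene did. Gzma-202 held 16.5% of Gzma in Control gRNA library 8 and 15.8% in Tardbp gRNA library 4, and at most 2.69% in the other 14 libraries.

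**Figure D4:**
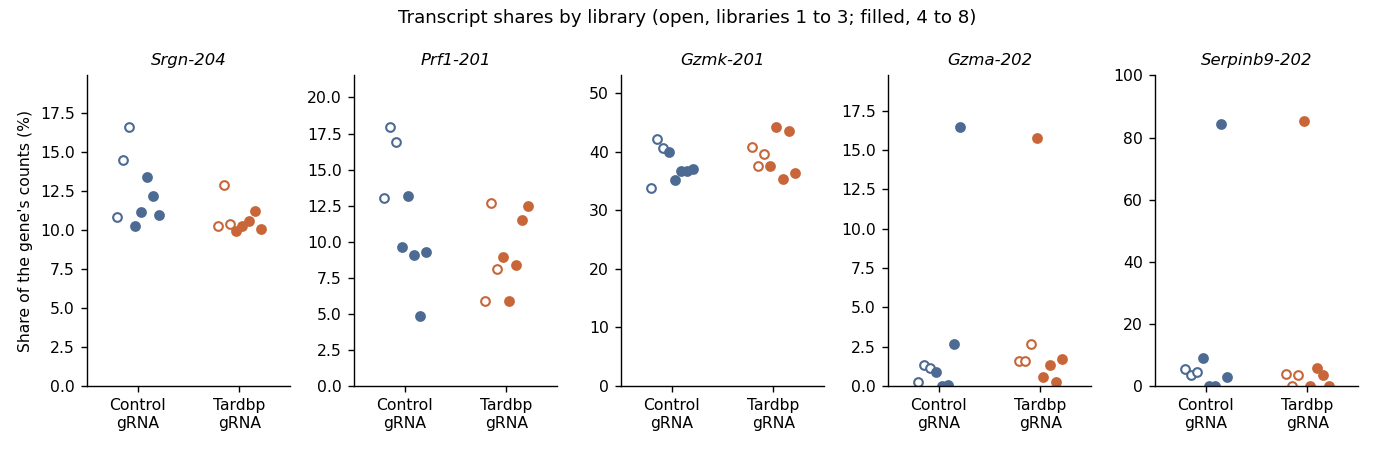
Share of 1 transcript in the counts of its gene (y axis, %) in the Control gRNA and Tardbp gRNA libraries, with open circles for libraries 1 to 3 and filled circles for 4 to 8. Groups overlap in all 5 panels, and single libraries lie away from the rest, at 84.5 and 85.2% for Serpinb9-202 and at 16.5 and 15.8% for Gzma-202.

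The splicing nodes of the members, exons or parts of exons with a deposited share of transcripts that include them (Psi) per group, likewise showed none in which Psi differed by more than 0.1 at a probability above 0.9. The members had 47 nodes, and over all genes 0.473% of 125520 nodes passed. The widest difference was at a node of Serpinb9 that Whippet types as a tandem transcript end, where Psi was 0.676 for Control gRNA and 0.608 for Tardbp gRNA at a probability of 0.615. At a core exon of Gzmc the Psi was 0.944 and 0.886 with a probability of 0.684. The highest probability, 0.849, belonged to a core exon of Srgn whose Psi of 0.982 and 0.988 differed little. These values are per group, so they have no spread between libraries and were not tested.

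Genes around the granule were read from lists of other components of the pathway. Over all tested genes 46.7% were called, so the counts below are to be read beside that share. Of 7 granule proteases, 5 were higher and 0 lower, with Ctsh at 1.47 ± 0.413 (log2 fold change ± SE, adjusted p = 0.00693), Ctsw, a cathepsin of cytotoxic lymphocytes, at 0.98 ± 0.0797 (adjusted p = 5.74e-08) and Ctss at 0.90 ± 0.0962 (adjusted p = 6.66e-07). Ctsc, which activates the granzymes by removing their propeptide, had 0.10 ± 0.0520 and did not pass (adjusted p = 0.126). Ctsw lay at 543 to 722 CPM in all 8 Tardbp gRNA libraries and at no more than 382 CPM in Control gRNA, without overlap. Ctsh was low, at 0.188 to 1.52 CPM in Control gRNA and 0.489 to 2.98 CPM in Tardbp gRNA, with overlap. It had 0.98 in libraries 1 to 3 alone (adjusted p = 0.373, edgeR) and 1.62 in libraries 4 to 8 alone (adjusted p = 0.00783, edgeR). Of 6 other inhibitors, 1 was higher and 3 were lower. Serpinb1a, an inhibitor of neutrophil-type serine proteases, had -1.23 ± 0.189 (adjusted p = 3.34e-05), Serpinb9b, a relative of Serpinb9, -0.63 ± 0.230 (adjusted p = 0.0321), and Cst7, or cystatin F, which inhibits cathepsin C in the granule, 0.59 ± 0.0869 (adjusted p = 2.27e-05). The inhibitors thus did not move in 1 direction. In libraries 1 to 3 alone Serpinb1a had -0.68 and Cst7 0.33, and in libraries 4 to 8 alone they had -1.61 and 0.73.

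Of 25 tested genes of granule membrane, transport and exocytosis, 7 were higher, 6 were lower and 12 did not pass. Over all tested genes 23.5% were higher and 23.3% lower. Stx7, a syntaxin of late endosomes, had 0.73 ± 0.0961 (log2 fold change ± SE, adjusted p = 5.99e-06), Sytl1, a synaptotagmin-like partner of Rab27a, 0.63 ± 0.148 (adjusted p = 0.00186) and Rab37 0.60 ± 0.0980 (adjusted p = 6.63e-05). The other higher genes were Nkg7, a granule membrane protein of cytotoxic cells, at 0.60 ± 0.0844 (adjusted p = 1.41e-05), and the vesicle fusion genes Vamp8, Vamp2 and Snap23. The lower genes were Rab27a, Unc13d, Stx11, Stxbp2, Arl8b and Kif5b. Rab27a, which docks granules at the membrane, had -0.49 ± 0.0550 (adjusted p = 1.07e-06) and Unc13d, which primes them for fusion, -0.41 ± 0.0580 (adjusted p = 1.41e-05). Without overlap between the groups, Stx7, Nkg7, Vamp8 and Vamp2 lay higher and Rab27a, Unc13d and Kif5b lower in all 8 Tardbp gRNA libraries. The groups did not overlap in 16.9% of all tested genes. Beyond Stx7, Sytl1 and Rab37 these genes were named after their values had been seen, and the log2 fold changes of the called genes ran from -0.49 to 0.73.

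Of 8 death receptor genes, 1 was higher and 2 were lower, where 46.7% of all tested genes were called in either direction. Fas, the receptor of Fas ligand, had 0.24 ± 0.0901 (log2 fold change ± SE, adjusted p = 0.0337) and Bid, which carries the signal to mitochondria, -0.15 ± 0.0564 (adjusted p = 0.0417). Of 8 regulators of cytotoxic genes, 2 were higher and 3 were lower, beside the same share over all genes. Eomes, a T-box factor of memory-like cytotoxic cells, had 1.06 ± 0.351 (adjusted p = 0.0191), Prdm1, which encodes Blimp-1 of effector cells, -1.003 ± 0.218 (adjusted p = 0.000937) and Zeb2, a zinc finger factor of effector cells, 0.64 ± 0.240 (adjusted p = 0.0361). Eomes had 0.58 (adjusted p = 0.402, edgeR) in libraries 1 to 3 alone and 1.65 (adjusted p = 4.6e-06, edgeR) in libraries 4 to 8 alone. The remaining called regulators were Tbx21 and Irf4, which were lower. Of the 2 T-box factors, Eomes was thus higher and Tbx21, for T-bet, was lower at -0.44 ± 0.0805 (adjusted p = 0.000202), while Runx3 did not pass at -0.16 ± 0.0966 (adjusted p = 0.179).

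Granzymes and perforin are also made by other cells, so markers of these were read beside the members. Calls among them stand beside 46.7% over all tested genes. NK cells express Gzma, Gzmb and Prf1, and the summed level of 7 NK cell markers was 3.90 to 8.33 CPM for Control gRNA, against 4.40 to 12.8 CPM for Tardbp gRNA. Of the 4 that could be tested, Tyrobp was higher and Klri2 was lower, and Klra8 had 0 counts in all Control gRNA libraries. The 6 mast cell and basophil markers summed to at most 1.37 CPM in any library and Mcpt4 was at 0 throughout. Myeloid markers summed to 14.8 to 36.8 CPM against 19.3 to 80.0 CPM with 2 of 6 higher, and red cell precursor markers to 0.295 to 13.0 CPM against 7.46 to 140.6 CPM with 3 of 3 tested genes higher. B cell markers, at 6.85 to 13.1 CPM against 7.28 to 18.4 CPM, and CD4 T cell markers, at 4.39 to 20.7 CPM against 6.15 to 15.6 CPM, had 0 called genes of 4 tested in each list by edgeR, with 1 and 0 at an unadjusted p under 0.05. The part of these cells in the members' results was not tested.

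Some members rose and fell together from library to library within a group. After centring on the group mean, the log2 CPM of Gzmk correlated over the 16 libraries with that of Prf1 at a Pearson r of 0.95, of Gzmm at 0.95 and of Fasl at 0.88. Centred on the set of numbers as well, these were 0.88, 0.88 and 0.88. In both groups library 1 was the highest for Gzmk, Gzmm, Prf1 and Fasl, and correlations without it are not given. Gzma and Gzmb correlated at 0.83 and at 0.72, whereas Gzma and Gzmk fell from 0.71 to 0.28. Gzma and Gzmk thus lost most of their correlation with the set taken out. Gzmc ran against Fasl (-0.68), Prf1 (-0.66) and Gzmk (-0.64). These values describe 16 libraries that share their numbers and depth and have no p.

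Of 8975 genes whose mean log2 CPM reached 3, those most like Gzmk were led by Samd3 (r = 0.99) and Eomes (0.98). For Gzmm they were Samd3 (0.96), Cd72 and Txk, and for Prf1 they were Fgf13 (0.96), Gzmk and Arsb. Fasl was most like Prf1 (0.89), Gzmk and Dstn. Each r is the highest of so many genes, and it is given as a description over 16 libraries.

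The other members had other partners. Gzma was most like Zdhhc18 (0.93), Ppm1j and Klrk1, Gzmb like Gramd3 (0.88), Ube2g2 and Lman2, and Serpinb9 like Pomt1 (0.90), Pfkp and Ube2g2. Srgn was most like Trbj2-1 (0.94), Plscr1 and Nrgn, and Lamp1 like Rnf187 (0.99), Ctbp1 and Yrdc. Gzmc, at its low counts, reached 0.79 with Dolk, followed by Mlkl and Il12rb2. Centred on the set of numbers as well, the r of these partners ran from 0.65 to 0.99, and that of Gzmb with Ube2g2 went from 0.86 to 0.65. Eomes, which was in the list of regulators, was thus the only gene of that list to stand among the 3 most alike of any member.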

How the data were processed

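For 8 Control gRNA and 8 Tardbp gRNA libraries, sorted CD8+ T cell RNA was prepared with SMART-Seq v4 and Nextera XT, a kit that does not mark strand, after 12 PCR cycles, and sequenced in read pairs. Groups and numbers were taken from the labels. The members and gene lists were chosen with earlier results of these data known.

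The authors aligned reads with HISAT2 2.1.0 to mm10 and made the deposited estimated counts per gene and transcript with StringTie 2.1.0, without normalization. These were whole numbers as deposited, at 1.89 to 2.02 counts per read pair. Counts are thus not numbers of separate fragments, and precision is that of the spread between libraries. Low counts, such as those of Gzmc, stand on average for fewer read pairs than their number. Whether PCR copies were among the counts was not tested. The sequencing facility gave the deposited counts of read pairs. Whippet was run by the authors, who deposited Psi as a fraction per group with a probability of a difference. Which Psi column is Control gRNA was taken from the study's text. Differences of Psi formed by the authors were not used. From both count tables, 10 columns each matched no sample and were left out, as were 26248 lines whose identifier is a bare number and 97 spike-in lines, which had 0 counts. Lines without a gene name took 0.0836 to 0.132% of a library.

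Tests of genes and transcripts used edgeR 4.0.16 under R 4.3.3 (quasi-likelihood test, TMM, filterByExpr by group with a minimum count of 10, all 16 libraries, no covariate) and called at a two-sided Benjamini-Hochberg adjusted p under 0.05 over all features. Unless stated, p-values are of this fit. They measure the spread between libraries, and the study's text describes them as from individual recipients, although no source used here ties a library to a mouse. Log2 CPM used a prior count of 2. Transcript shares were tested with limma 3.58.1. Alternatives also used DESeq2 1.42.0. The main fits of genes, transcripts and shares were tried first on simulated counts, drawn without the split by library number. The alternative fits and the interaction terms were not. TPM values were computed from transcript counts and lengths. No stretch of 100 bases in a member's transcripts was found in another gene.

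The text names all members, Tardbp, the 3 largest log2 fold changes among the called genes of each pathway list, further genes where said, and for each member the 3 genes with the highest Pearson r of log2 CPM centred on the group mean. Of the genes this rule gives, 2 are not reported here. Tables were read in Python 3.11.15 with pandas 2.3.3, and figures were drawn with matplotlib 3.10.9.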

Additional observations from a re-analysis of the deposited data

Results flagged for a closer look

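Of 20 sets of 8 values, 1 for each member and guide, 3 had a library whose CPM stood apart by Dixon's test at the 95% level, where chance sets apart about 1 set in 20. All 3 were Tardbp gRNA library 1, in genes that also correlated with each other, so they are not independent, at 157 CPM for Gzmk with the next library at 68.5 CPM, at 124 CPM for Prf1 with the next at 78.7 CPM, and at 70.7 CPM for Fasl with the next at 48.6 CPM. Without this library the log2 fold change was 0.32 for Gzmk (adjusted p = 0.559, edgeR), 0.61 for Prf1 (adjusted p = 0.00589, edgeR) and 0.25 for Fasl (adjusted p = 0.147, edgeR). Of 14 sets of transcript shares 5 had such a library. Serpinb9-202 made up 84.5% of Serpinb9 in Control gRNA library 7 and 85.2% in Tardbp gRNA library 4. Gzma-202 made up 16.5% of Gzma in Control gRNA library 8 and 15.8% in Tardbp gRNA library 4. Srgn-204 made up 12.9% of Srgn in Tardbp gRNA library 2.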

How the results depend on the processing

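Across 29 other fits of the genes, all 290 log2 fold changes of the members kept their direction, and 259 kept their side of the threshold. The count of called members was 7, with 5 higher and 2 lower, where 46.7% of all tested genes were called. It was 6 to 8 (4 to 6 higher, 2 to 3 lower) when 1 library was left out, with 43.3 to 45.7% of all genes. It was 4 (2 higher) at an adjusted p under 0.01, where 34.5% of all tested genes were called, 3 (1 higher) with a log2 fold change over 1 in size, with 6.01% of all genes, and 2 (1 higher, 1 lower) in libraries 1 to 3 alone, where 6 libraries were fitted, with 10.1%. With log2 RNA concentration, which does not overlap between groups, added to the fit, 5 members were called (4 higher, 1 lower), with 16.2% of all genes. In that fit the log2 fold change was 1.66 for Gzma, 2.35 for Gzmm, 2.40 for Gzmk, 1.35 for Prf1, 1.06 for Fasl, 0.83 for Lamp1 and -0.15 for Gzmb, of which Gzmk, Lamp1 and Gzmb did not pass. The letter M or F as a covariate ended the call of Fasl (log2 fold change 0.33, adjusted p = 0.0772, edgeR), as did testing with no filter on low counts (0.38, adjusted p = 0.0744, edgeR). DESeq2 at its default settings called Gzmk at 1.05 (adjusted p = 0.00925) and limma-voom at 0.99 (adjusted p = 0.0323), against 0.62 in the main fit. Whether the weight given to single high libraries made this gap was not tested. Called transcripts of the members rose from 4 to 10 in libraries 4 to 8 alone, and the share over all transcripts in that fit is not given here. Over all genes, 3906 were higher and 3877 lower, against 4865 and 3086 with upper quartile scaling and 4881 and 3135 with library totals only, and the called members and their directions did not change under either. Stricter and looser thresholds left the count of member splicing nodes and transcript shares at 0.

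Library numbers were not treated as pairs in the main fit, and whether they pair the samples was not tested. The correlation of deviations between libraries of the same number was -0.00480 to 0.160. Its mean with libraries of other numbers was -0.0236 to 0.000898, and 2 of 8 numbers had a Control gRNA library that correlated best with its own number. With the number as a replicate block 9 members were called (6 higher, 3 lower), where 45.9% of all tested genes were called. Among them were Gzmk at 0.95 (adjusted p = 0.00410, edgeR) and Gzmb at -0.48 (adjusted p = 0.0344, edgeR). In the transcript fit with that block 7 member transcripts were called, and the share over all transcripts is not given here. Counts were lowest for Gzmc, at no more than 61 in a Tardbp gRNA library, and the effect of depth on the tests was not tested.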
